A study of Mus musculus with 10 samples.

Results

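The 9 genes described here encode enzymes of the sterol branch of cholesterol synthesis, which leads from the last shared isoprenoid of the mevalonate pathway to cholesterol. They are Fdft1, Sqle, Lss, Cyp51, Msmo1, Nsdhl, Hsd17b7, Sc5d and Dhcr7, chosen by gene symbol for their place in the pathway. The choice was made with earlier results of these data known. Other enzymes of the late steps, such as Ebp, Tm7sf2 and Lbr, lie outside the set. They are 9 of the 13942 genes tested, and each was measured by a single probe set. RNA from the liver of female BALB/cByJ mice aged 3 months was hybridised to 10 Affymetrix Mouse Gene 2.1 ST arrays, which read a transcript through probes spread over its exons. The study compared Pml knockout with Pml wild type mice in 2 feeding states. The groups were Pml knockout with food removed for 6 h (3 arrays), Pml wild type with food removed for 6 h (3 arrays), Pml knockout fed ad libitum (2 arrays) and Pml wild type fed ad libitum (2 arrays). They are called fasted knockout, fasted wild type, fed knockout and fed wild type below. Pml encodes the protein that organises PML nuclear bodies, and the comparisons ask how liver transcripts differ without it, both in fed mice and after food was briefly withheld. Because all 10 samples carry the same note on the removal of food, the feeding state was taken from the sample titles. Whether each array stands for a separate animal is not given, so the p-values rest on the spread among these arrays, which may be partly technical.

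The branch begins where the enzyme encoded by Fdft1 joins a pair of farnesyl diphosphate molecules into squalene, which commits the carbon to sterols. Squalene is made into an epoxide, closed into the ring system of lanosterol, stripped of 3 methyl groups and then adjusted at its double bonds until cholesterol is reached. The liver is a main site of cholesterol synthesis and lowers it when food is withheld. The genes of the pathway are known targets of SREBP2, a transcription factor held in the endoplasmic reticulum by Scap and Insig proteins while sterols are plentiful and released when they are scarce. On DNA it works beside the factors NF-Y, which binds CCAAT boxes, and Sp1, which binds GC boxes.

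Promoter sequence is shown for the members because most of them moved together between the feeding states. The promoter table, RefSeq on GRCm38.p6, holds 9 promoters of 7 of the 9 members and 32851 promoters of 27025 genes in all. The 250 bases before each transcript start were searched on both strands. The box CCAAT was found at 7 of 7 members with an entry, against 37.5% of all genes. The GC box GGGCGG was found at 7 of 7 members, against 35.4% of all genes. Both boxes stood in the same 250 bases in 7 of the 9 member promoters, against 11% of all promoters. Of 2 spellings searched for the sterol regulatory element, TCACNCCAC was in 0 of the 9 member promoters (1.05% of all promoters) and TCACCNCAC was in 1, that of Hsd17b7 (1.11%). The E-box CACGTG was found at Dhcr7, Hsd17b7 and Sc5d (3 of 9 promoters, against 6.02% of all). A match of letters is a description of the sequence and not evidence of binding, and letters missing from this window say nothing of the factor. The 120 bases before the start are printed 5′ to 3′ on the strand of the gene, a length chosen after the matches were seen. Capitals mark CCAAT or its reverse complement ATTGG, and in Hsd17b7 also the sterol regulatory element, and no 2 marked stretches overlap. The stretches are chr5:4104698-4104817 (minus strand) for Cyp51, chr7:143830094-143830213 (plus) for Dhcr7, chr1:169969206-169969325 (minus) for Hsd17b7, chr10:76531485-76531604 (plus) for Lss, chr8:64733579-64733698 (minus) for Msmo1, chrX:72918401-72918520 (plus) for Nsdhl and chr9:42264301-42264420 (minus) for Sc5d.
Cyp51: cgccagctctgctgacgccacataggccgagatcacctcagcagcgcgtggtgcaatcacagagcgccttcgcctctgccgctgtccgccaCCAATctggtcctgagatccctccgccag
Dhcr7: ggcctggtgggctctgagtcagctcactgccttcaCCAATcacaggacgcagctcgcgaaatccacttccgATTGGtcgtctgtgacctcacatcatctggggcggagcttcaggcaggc
Hsd17b7: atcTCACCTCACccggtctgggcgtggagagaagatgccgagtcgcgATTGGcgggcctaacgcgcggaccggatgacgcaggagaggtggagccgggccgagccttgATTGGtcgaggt
Lss: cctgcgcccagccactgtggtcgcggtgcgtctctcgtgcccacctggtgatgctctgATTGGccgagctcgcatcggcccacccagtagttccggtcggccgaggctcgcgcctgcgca
Msmo1: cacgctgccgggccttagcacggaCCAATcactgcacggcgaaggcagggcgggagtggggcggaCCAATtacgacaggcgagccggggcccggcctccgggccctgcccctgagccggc
Nsdhl: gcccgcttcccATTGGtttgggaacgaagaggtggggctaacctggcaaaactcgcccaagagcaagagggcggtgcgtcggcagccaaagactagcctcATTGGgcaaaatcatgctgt
Sc5d: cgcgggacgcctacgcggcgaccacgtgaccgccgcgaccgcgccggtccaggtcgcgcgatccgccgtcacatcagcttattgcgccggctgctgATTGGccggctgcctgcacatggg
The 7 stretches are those of the 9 member promoters that hold a CCAAT box, and the other 2 promoters, both of Dhcr7, hold none in their 250 bases.

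Levels of single genes below are log2 values of the deposited normalized intensity, so a difference of 1 is a doubling of intensity. Array medians and summed marker intensities are given on the linear scale. Array medians lay between 43.5 and 47.5 intensity units, and all 90 values of the members (9 genes on 10 arrays) stood above the median of their array. Pml itself was lower in knockout, at log2 6.05 to 6.35 in fasted knockout against 7.50 to 8.13 in fasted wild type, and at 6.41 to 6.91 in fed knockout against 8.22 to 8.37 in fed wild type. The 6 measured hepatocyte markers stood above the array median on every array, with summed intensities of 31351 to 33959 in fasted knockout, 33528 to 33982 in fasted wild type, 33116 to 34658 in fed knockout and 33015 to 33940 in fed wild type. None of the 5 neutrophil markers passed the filter on dim probe sets. In whole liver, fewer cells of a type and less RNA per cell cannot be told apart. A clock score, the mean log2 level of 5 genes on the side of Arntl minus that of 7 genes on the side of Dbp, was -2.87, -2.59 and 1.88 in fasted knockout, against 2.30, 1.68 and 1.92 in fasted wild type. It was -2.35 and -2.29 in fed knockout and -1.18 and -1.59 in fed wild type. Fasted knockout replicates 1 and 2 thus stood apart from the third fasted knockout array and from the fasted wild type arrays in clock state. The main results that involve fasted knockout, though not every value, are also given without these 2 arrays. The 1 fasted knockout array left there is assumed to vary like the other groups.

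The highest group mean of all 9 members was that of fed wild type. For 7 members the order was fed wild type, fed knockout, fasted knockout and fasted wild type. The exceptions were Dhcr7, whose fasted groups were in the opposite order, and Hsd17b7, whose lowest mean was that of fed knockout.

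Fdft1 encodes squalene synthase, the first enzyme of the branch. Its log2 intensity was 10.60, 10.32 and 10.23 in fasted knockout, 10.14, 9.71 and 9.64 in fasted wild type, 10.71 and 10.84 in fed knockout, and 11.26 and 11.68 in fed wild type. The 4 groups did not overlap on this gene. Sqle encodes squalene epoxidase, a rate-limiting enzyme of sterol synthesis, and had 7.996, 6.87 and 8.20 in fasted knockout, 8.04, 7.27 and 7.41 in fasted wild type, 9.17 and 8.81 in fed knockout, and 9.56 and 10.61 in fed wild type. The fasted groups of Sqle overlapped, and its spread within groups was the widest of the members, with a residual standard deviation of 0.576 on the log2 scale. Lss encodes lanosterol synthase, which closes the rings, and had 7.58, 7.48 and 7.44 in fasted knockout, 7.59, 7.18 and 7.37 in fasted wild type, 8.20 and 8.84 in fed knockout, and 9.01 and 9.76 in fed wild type. The fasted groups of Lss overlapped, and both lay below both fed groups.

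Cyp51 encodes the cytochrome P450 that takes the first methyl group off lanosterol. Its log2 intensity was 7.28, 7.29 and 8.09 in fasted knockout, 7.21, 7.02 and 7.17 in fasted wild type, 8.24 and 8.54 in fed knockout, and 9.46 and 9.99 in fed wild type. The groups did not overlap, and the third fasted knockout array came close to the fed knockout arrays. Msmo1 encodes the oxidase that starts the removal of the other methyl groups, and had 8.94, 8.89 and 9.01 in fasted knockout, 8.71, 8.49 and 7.99 in fasted wild type, 9.58 and 9.71 in fed knockout, and 10.37 and 10.90 in fed wild type. Its 4 groups were also separate, with the fasted knockout arrays close to each other.

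Nsdhl encodes the sterol dehydrogenase that follows Msmo1 in the removal of these methyl groups. Its log2 intensity was 9.97, 9.51 and 10.15 in fasted knockout, 9.47, 8.80 and 9.09 in fasted wild type, 10.62 and 10.29 in fed knockout, and 11.22 and 11.37 in fed wild type. The groups were separate, though the lowest fasted knockout array lay within 0.04 of the highest fasted wild type array. Hsd17b7 encodes the reductase that completes each of these rounds, and had 9.50, 9.99 and 10.05 in fasted knockout, 9.97, 10.11 and 10.12 in fasted wild type, 9.81 and 9.70 in fed knockout, and 10.01 and 10.62 in fed wild type. Its groups overlapped in every comparison except that of the fed genotypes, where the fed knockout arrays were the lower ones.

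Sc5d encodes sterol desaturase, which sets a double bond near the end of the pathway. Its log2 intensity was 10.89, 10.97 and 10.98 in fasted knockout, 10.51, 10.38 and 10.64 in fasted wild type, 11.31 and 11.58 in fed knockout, and 11.80 and 11.77 in fed wild type. The groups did not overlap, and the residual standard deviation of 0.112 was the narrowest of the members, against a median of 0.166 over all genes. Dhcr7 encodes the reductase of the last step to cholesterol, and had 8.17, 8.20 and 8.46 in fasted knockout, 8.87, 8.17 and 8.49 in fasted wild type, 8.96 and 9.15 in fed knockout, and 9.65 and 9.76 in fed wild type. The fasted groups of Dhcr7 overlapped, and both lay below the fed groups.

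**Figure D1:**
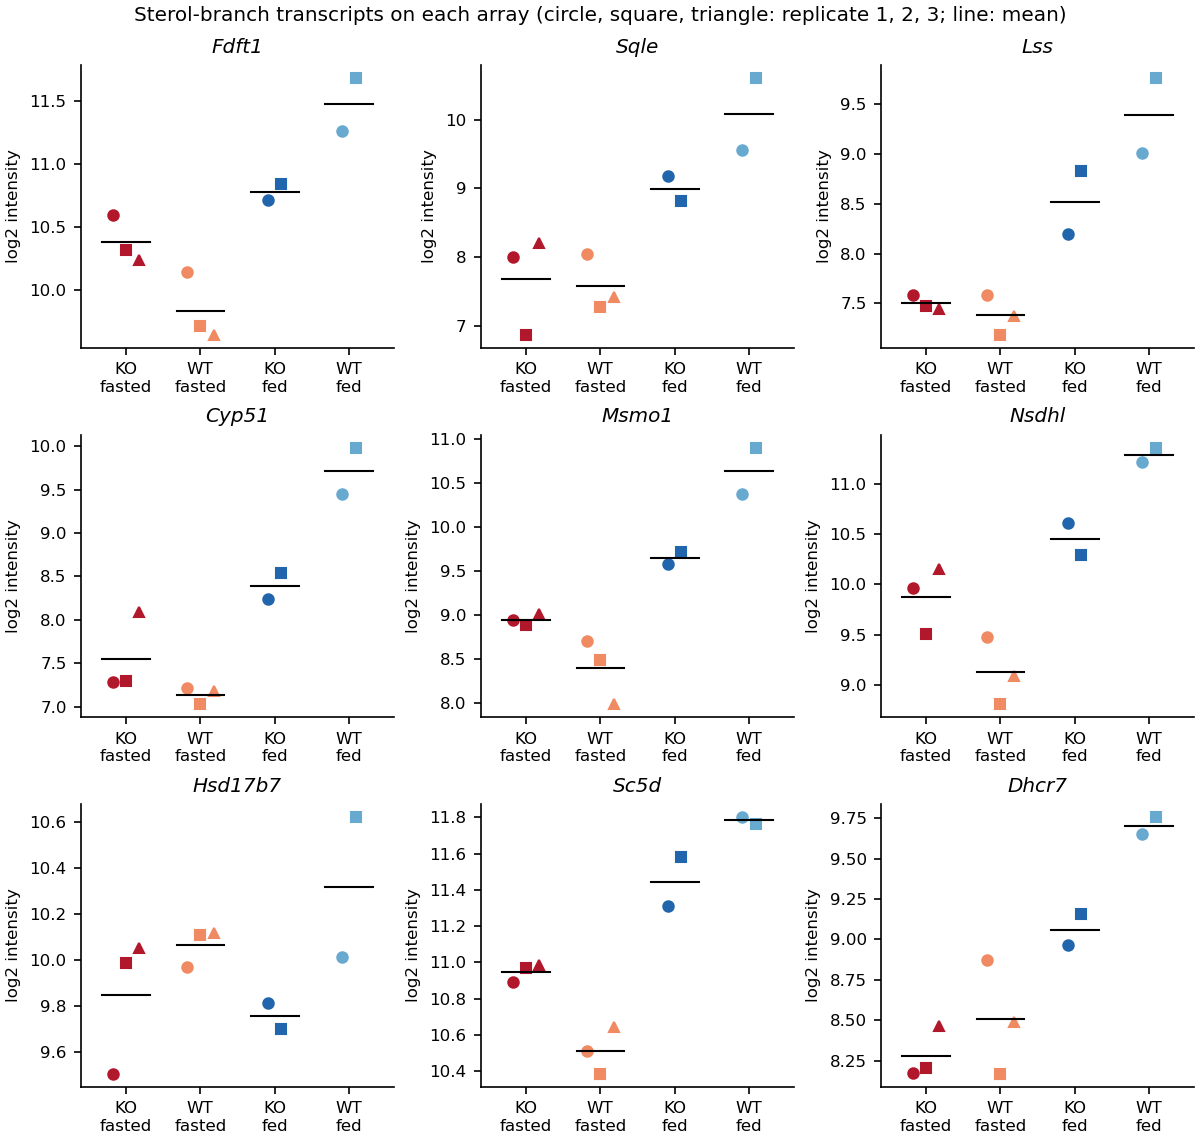
Log2 intensity (vertical axis) of each of the 9 genes on each array, by group (horizontal axis), with replicate 1 as a circle, 2 as a square and 3 as a triangle, and the group mean as a line; each panel has its own vertical range. Fed wild type has the highest mean in all 9 panels, and Hsd17b7 is the panel where fasted and fed arrays overlap in both genotypes.

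In wild type, 8 of the 9 members fell with fasting, and Hsd17b7 was the exception. Differences were fitted in limma with 1 model of the 4 groups over all 13942 genes, with Benjamini-Hochberg adjustment over all of these, and adjusted p under 0.05 counted as a call. Of all genes tested, 13.2% were called lower in fasted than in fed wild type. Fasted and fed wild type arrays did not overlap for the same 8 members (29.7% of all genes did not overlap in this direction). The median difference of the members was -2.01 on the log2 scale, against -0.02 over all genes. These 8 calls held under all 22 alternative settings and omissions.

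Cyp51 and Sqle had the largest differences among the members, on either side of the ring closure. Cyp51 averaged 7.14 ± 0.10 in fasted wild type (SD, n = 3) and 9.72 ± 0.37 in fed wild type (SD, n = 2), a log2 difference of -2.58 (standard error, SE, 0.25; limma adjusted p 0.000453). Its fasted level was 16.7% of the fed level. Sqle fell by 2.51 on the log2 scale (SE 0.42, limma adjusted p 0.00373), to 17.6% of the fed level. Msmo1 fell by 2.24 (SE 0.21, limma adjusted p 0.000411), Nsdhl fell by 2.17 (SE 0.23, limma adjusted p 0.000541) and Lss fell by 2.01 (SE 0.24, limma adjusted p 0.000812). Fdft1, at the head of the branch, fell by 1.64 (SE 0.19, limma adjusted p 0.000699), to 32.1% of the fed level. The enzymes of the end of the pathway had smaller differences, -1.27 for Sc5d (SE 0.12, limma adjusted p 0.0004) and -1.19 for Dhcr7 (SE 0.19, limma adjusted p 0.00275), which left 41.5% and 43.7% of the fed level. The difference of Hsd17b7 was -0.25, with a 95% confidence interval of -0.71 to 0.20 (limma adjusted p 0.411), so its interval lay above those of the 8 members that fell. Clock state differed between these groups, whose scores did not overlap, so in wild type the effect of feeding and that of clock state cannot be told apart. Of the 7 macrophage markers, 2 were called lower in fasted wild type, against 13.2% of all genes. The summed intensity of the 7 was 2840 to 3000, against 3082 to 3710 in fed wild type, and their part in the result was not tested.

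In knockout, 0 of the 9 members were called between fasted and fed, in a comparison in which 0.868% of all genes were called lower and 1.68% in either direction. The values were nevertheless mostly lower after fasting. Fasted and fed knockout arrays did not overlap for 8 members, all lower in fasted (18.5% of all genes), and 7 members had an unadjusted p under 0.05 (9.78% of all genes in this direction). The median difference of the members was -0.70, against 0.01 over all genes. Sqle had a log2 difference of -1.31 (95% interval -2.26 to -0.36, limma adjusted p 0.144), Lss of -1.02 (interval -1.55 to -0.48, adjusted p 0.0668) and Cyp51 of -0.83 (interval -1.39 to -0.27, adjusted p 0.12). Those of Dhcr7, Msmo1, Nsdhl, Sc5d and Fdft1 were -0.78, -0.70, -0.58, -0.50 and -0.39. Hsd17b7 had 0.09. As a level, Cyp51 in fasted knockout was 56.1% of that in fed knockout and Fdft1 was 76.1%. Without fasted knockout replicates 1 and 2 together, 0 members were called, 2 had an unadjusted p under 0.05, the median was -0.54 and Cyp51 had -0.29 (limma adjusted p 0.535). A filter at the 70th percentile, and moderation with a trend and robust variances, each made 3 calls here, namely Lss, Sc5d and Dhcr7. Lss was also called when either fed wild type array was left out (limma adjusted p 0.0485 each).

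**Figure D2:**
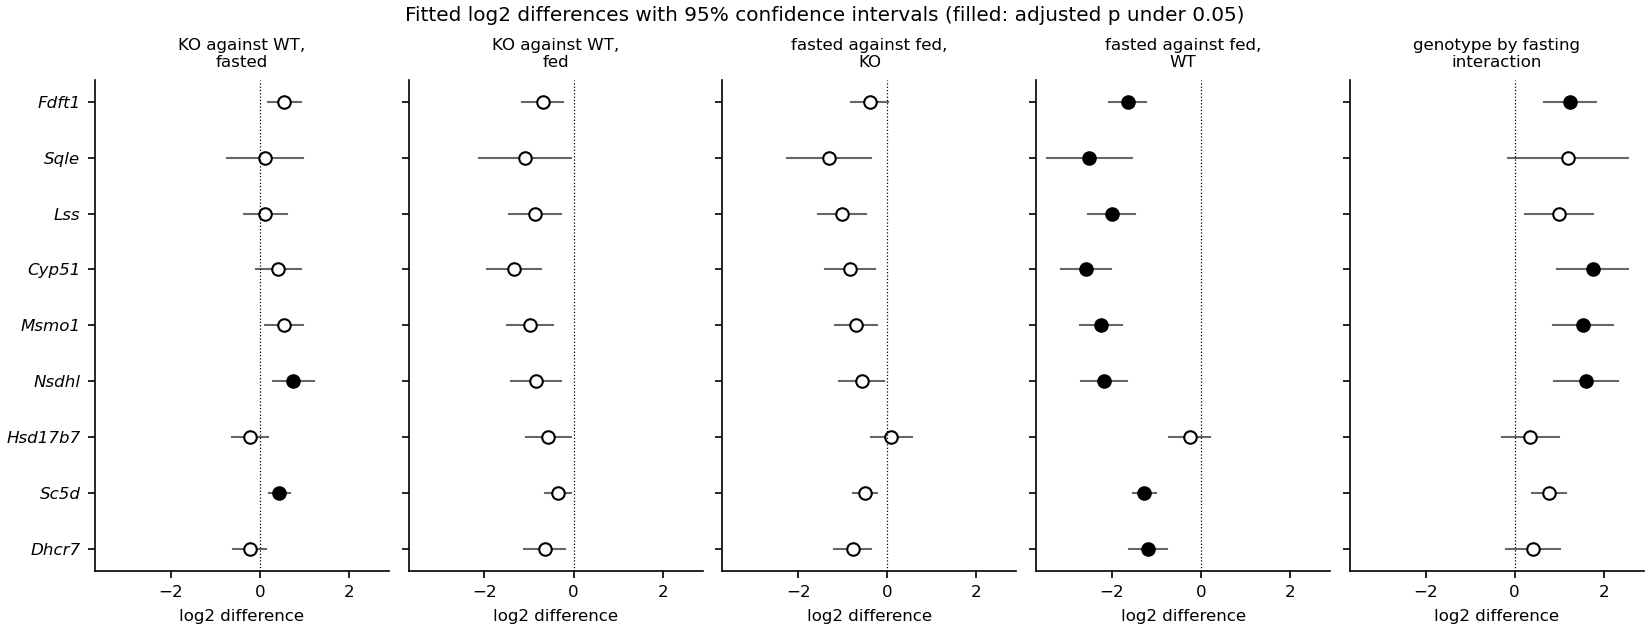
Fitted log2 difference (horizontal axis) with its 95% confidence interval for each member (vertical axis) in the 5 comparisons; filled points have an adjusted p under 0.05 over all genes. Filled points number 2, 0, 0, 8 and 4 from left to right, and the points of the interaction lie right of 0 for all 9 members.

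The difference between the genotypes in the fasting response was tested as an interaction, the fasting difference in knockout minus that in wild type. Cyp51, Nsdhl, Msmo1 and Fdft1 were called, all with the smaller drop in knockout, and these 4 of 9 members compare with 1.32% of all genes called in this direction. Cyp51 had an interaction of 1.75 on the log2 scale (SE 0.35, limma adjusted p 0.0426), from a fasting difference of -0.83 in knockout against -2.58 in wild type. Nsdhl had 1.60 (SE 0.32, limma adjusted p 0.0426), from -0.58 in knockout against -2.17 in wild type. Msmo1 had 1.54 (SE 0.30, limma adjusted p 0.0426), from -0.70 in knockout against -2.24 in wild type. Fdft1 had 1.25 (SE 0.26, limma adjusted p 0.0463), from -0.39 in knockout against -1.64 in wild type. The same interaction is also the genotype difference after fasting minus that in the fed state. These 2 differences, knockout minus wild type, were 0.42 and -1.34 for Cyp51 and 0.75 and -0.84 for Nsdhl. They were 0.55 and -0.98 for Msmo1 and 0.55 and -0.70 for Fdft1. In this fit the fed difference was the larger in size for each of these genes, but which part is larger was not tested. Without fasted knockout replicates 1 and 2 together, Nsdhl had 1.03 and -0.84, while Cyp51, Msmo1 and Fdft1 kept the order.

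The other 5 members were not called. Sc5d had an interaction of 0.77 (95% interval 0.40 to 1.15, limma adjusted p 0.0505), Sqle of 1.20 (interval -0.14 to 2.54, adjusted p 0.297) and Lss of 0.99 (interval 0.23 to 1.75, adjusted p 0.149). Those of Dhcr7 and Hsd17b7 were 0.41 and 0.35 (adjusted p 0.418 and 0.533). The value was above 0 for all 9 members, with a median of 1.20, against 0.04 over all genes. The calls were near the threshold. Leaving out 1 array at a time left 0 to 2 of them, and none of the 10 omissions kept all 4. No member was called without fed wild type replicate 2, either fed knockout array, any 1 of the fasted wild type arrays or fasted knockout replicate 1. Without fed wild type replicate 1, Msmo1 was called. Without fasted knockout replicate 2, Cyp51 and Nsdhl were called, and without its replicate 3, Cyp51 and Fdft1. Without fasted knockout replicates 1 and 2 together the interactions were 2.29 for Cyp51, 1.87 for Nsdhl, 1.60 for Msmo1 and 1.10 for Fdft1, and 0 were called (limma adjusted p 0.065 to 0.144). With the replicate number as a block, Cyp51 and Nsdhl were called (adjusted p 0.0494 each) and Msmo1 and Fdft1 were not (0.0604 and 0.0683). Clock scores lay between 1.68 and 2.30 in fasted wild type, above fed wild type (-1.59 and -1.18). Fasted knockout replicates 1 and 2 (-2.87 and -2.59) stayed near fed knockout (-2.35 and -2.29), unlike replicate 3 (1.88). With the score as a covariate, Cyp51 stayed called, and Nsdhl, Msmo1 and Fdft1 had 1.81, 1.58 and 1.14 (limma adjusted p 0.0541, 0.0681 and 0.0921). Beyond this fit, the part of clock state in the interaction was not tested.

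In the fed state, 0 of the 9 members were called between knockout and wild type, where 0.0287% of all genes were called lower and 0.0861% in either direction. All 9 were at lower values in fed knockout, on every array, so the groups did not overlap (23.7% of all genes did not overlap in this direction). All 9 had an unadjusted p under 0.05 (5.21% of all genes), a count that was 3 when fed wild type replicate 2 was left out, and 4 or 6 when replicate 1 or 2 of fed knockout was. The median difference was -0.84, against -0.02 over all genes. Cyp51 averaged 8.39 ± 0.21 in fed knockout and 9.72 ± 0.37 in fed wild type (SD, n = 2 each), a log2 difference of -1.34 (95% interval -1.95 to -0.72, limma adjusted p 0.193). Sqle had -1.09 and Msmo1 -0.98 (limma adjusted p 0.556 and 0.222). Lss, Nsdhl, Fdft1, Dhcr7, Hsd17b7 and Sc5d had -0.87, -0.84, -0.70, -0.64, -0.56 and -0.34, with adjusted p from 0.35 to 0.5. Fed wild type replicate 2 was higher than replicate 1 for 8 members, by a median of 0.53, and without it the median difference between the genotypes was -0.56. Without that array Sqle had -0.56, Lss -0.50 and Hsd17b7 -0.26, and without fed knockout replicate 1 Sc5d had -0.20 and Lss -0.55. Without fasted knockout replicate 3, Cyp51 was called in this comparison, through the shared estimate of the spread (limma adjusted p 0.0495).

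After fasting, Nsdhl and Sc5d were called higher in knockout, 2 of 9 members where 6.68% of all genes were called in this direction. Nsdhl averaged 9.88 ± 0.33 in fasted knockout and 9.12 ± 0.34 in fasted wild type (SD, n = 3 each), a log2 difference of 0.75 (SE 0.20, limma adjusted p 0.0438). Sc5d averaged 10.95 ± 0.05 in fasted knockout and 10.51 ± 0.13 in fasted wild type (SD, n = 3 each), a difference of 0.43 (SE 0.11, limma adjusted p 0.0324). These are 1.69 times and 1.35 times the fasted wild type level. Fdft1, Msmo1 and Cyp51 also did not overlap between the genotypes, with higher values in fasted knockout, which made 5 of 9 members against 17.9% of all genes. Their differences were 0.55, 0.55 and 0.42 (limma adjusted p 0.0615, 0.0896 and 0.255). Lss and Sqle had 0.12 and 0.11, with 95% intervals of -0.36 to 0.60 and -0.74 to 0.96. Hsd17b7 and Dhcr7 had -0.22 and -0.23. The median of the members was 0.42, against 0.01 over all genes.

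The 2 calls after fasting also lay near the threshold. Nsdhl remained called without fasted wild type replicate 1 and without fasted knockout replicate 2, and each of the other 8 omissions ended its call. Sc5d remained called without any 1 of the 4 fed arrays, and each of the 6 omissions of a fasted array ended its call. Without fasted knockout replicates 1 and 2 together, the difference of Nsdhl was 1.03 (limma adjusted p 0.114) and that of Sc5d was 0.47 (adjusted p 0.194). The 1 fasted knockout array left there was the highest of the 3 for both genes. Cyp51, Sqle, Msmo1 and Fdft1 had 0.95, 0.62, 0.62 and 0.40 there. Lss, Hsd17b7 and Dhcr7 had 0.06, -0.01 and -0.05, and the median of the members was 0.47. With the clock score as a covariate instead, Nsdhl had 1.06 and Sc5d had 0.48, and neither was called (limma adjusted p 0.116 and 0.178). Beyond this fit, the part of clock state in these differences was not tested. Without fasted knockout replicate 3 the median of the members was 0.15. Fdft1 was called higher in fasted knockout without fasted wild type replicate 1 (log2 difference 0.70, limma adjusted p 0.0423). Of the 7 macrophage markers, 4 were called higher in fasted knockout, against 6.68% of all genes. Their summed intensities were 3410 to 3840, against 2840 to 3000 in fasted wild type, and their part in the results on Nsdhl and Sc5d was not tested.

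Across the 10 arrays, 8 members followed each other closely. The Pearson correlation of a member with the mean of the other 8 was 0.979 for Cyp51, 0.971 for Msmo1 and 0.964 for Lss, and lay between 0.913 and 0.945 for Sqle, Nsdhl, Fdft1, Sc5d and Dhcr7. It was 0.342 for Hsd17b7. These values are descriptions over arrays that share the group differences. The mean of the 9 members, each centred on its own mean, was -0.36, -0.52 and -0.17 in fasted knockout, -0.40, -0.78 and -0.69 in fasted wild type, 0.27 and 0.37 in fed knockout, and 0.91 and 1.37 in fed wild type. The feeding states were separate in both genotypes, and the first fasted wild type array lay among the fasted knockout arrays. Arntl, the core clock activator, had log2 intensities of 4.60, 4.53 and 8.87 in fasted knockout, against 9.29, 9.04 and 9.16 in fasted wild type. The third fasted knockout array had the highest members' mean of its group, and the part of clock state in the members' levels was not tested.

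**Figure D3:**
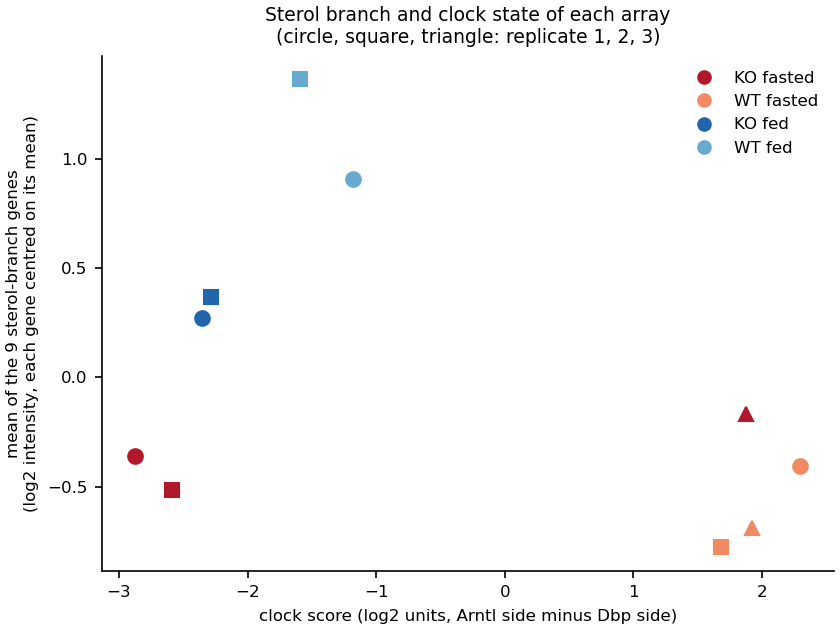
Mean log2 intensity of the 9 genes, each centred on its mean (vertical axis), against the clock score of the array in log2 units (horizontal axis), 1 point per array with groups by colour and replicates by shape. Fasted knockout replicates 1 and 2 (red circle and square) lie at clock scores of -2.87 and -2.59 and the third at 1.88, while their sterol-branch means lie between -0.52 and -0.17.

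The mevalonate pathway supplies the farnesyl diphosphate that enters the branch. Of 9 entries of the mevalonate pathway, 6 were tested, and 5 of these were called lower with fasting in wild type (13.2% of all genes). The median of the 6 was -1.61, against -0.02 over all genes. Mvk, the mevalonate kinase, fell by 2.92 on the log2 scale (SE 0.18, limma adjusted p 9.23e-05), to a mean of 5.49 ± 0.15 in fasted wild type (SD, n = 3) against 8.41 ± 0.27 in fed wild type (SD, n = 2). Only 1 of its 3 fasted wild type values stood above the array median. Mvd, which decarboxylates the phosphorylated product, fell by 2.49, Fdps, which makes farnesyl diphosphate, fell by 1.88 and Pmvk, the kinase after Mvk, fell by 1.34 (limma adjusted p 0.0016, 0.00132 and 0.00372). In knockout 0 of the 6 were called with fasting (1.68% of all genes in either direction), and the median was -0.66, against 0.01 over all genes. Mvk was the 1 gene of the list called in the interaction, at 2.21 (limma adjusted p 0.017; 1.32% of all genes were called in this direction). It was also the 1 gene called higher in fasted knockout than in fasted wild type, by 1.07 (limma adjusted p 0.00685; 6.68% of all genes). The interaction of Mvk was no longer called without fed knockout replicate 1 or without its replicate 2 (adjusted p 0.0572 and 0.0735). With replicates 1 and 2 of fasted knockout both left out, its interaction was 2.30 and its difference after fasting was 1.16 (adjusted p 0.065 and 0.0697). In the fed state 0 of the 6 were called between the genotypes (0.0861% of all genes in either direction), with a median of -1.05, against -0.02 over all genes. As for the members, all 6 were lower in fed knockout with no overlap (23.7% of all genes). All 6 also had an unadjusted p under 0.05 in limma (5.21% of all genes).

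Enzymes of the late steps outside the set gave other values. Of 5 such entries, 3 were tested, and 0 were called in any of the 5 comparisons. Ebp, the sterol isomerase that acts just before Sc5d, had a fasting difference of -0.09 in knockout and -0.26 in wild type (limma adjusted p 0.689 and 0.122). Tm7sf2 and Lbr, which both encode sterol reductases, had -0.03 and 0.18 in knockout and -0.21 and 0.04 in wild type. In the fed state all 3 were lower in knockout with no overlap (23.7% of all genes), and 0 had an unadjusted p under 0.05 in limma.

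Of 12 entries for sterol sensing and uptake, 9 were tested, and in wild type 4 were called lower and 2 higher with fasting (13.2% and 8.23% of all genes). Srebf1, which encodes SREBP1, fell by 2.80 on the log2 scale (limma adjusted p 0.00166). Insig1, whose protein retains SREBPs in the endoplasmic reticulum and which is itself one of their targets, fell by 1.89 (limma adjusted p 0.0011). Stard4, a carrier of cholesterol between membranes, fell by 1.76 (adjusted p 0.000569). Insig2, the second retention protein, was higher in fasted wild type by 1.63 (adjusted p 0.00376). Srebf2, the gene of SREBP2, was singled out after its values were seen. It fell by 0.68 in wild type (limma adjusted p 0.0265), and that call was lost without fed wild type replicate 2, where the difference was -0.48, and without fasted wild type replicate 2 or 3.

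In knockout, Srebf1 was the 1 gene of the sensing list called with fasting, at -2.11 (limma adjusted p 0.0415), and 7 of 10 omissions of an array ended that call (all but those of either fed wild type array and of fasted knockout replicate 1). In this comparison 0.868% of all genes were called lower. Insig1 had -1.14 (limma adjusted p 0.0507) and Srebf2 -0.39 (adjusted p 0.29). After fasting, Stard4 was called higher in knockout by 0.73 (limma adjusted p 0.0266) and Insig2 lower by 1.00 (adjusted p 0.0333), 1 gene of 9 each way where 6.68% of all genes were called higher and 4.43% lower. Without fasted knockout replicates 1 and 2 together, these differences were 0.46 and -0.34 (adjusted p 0.319 and 0.344). The fasting difference of Srebf1 in knockout was then -2.86 (adjusted p 0.0227). Leaving out any 1 of the fasted wild type arrays, or fasted knockout replicate 1 or 2, also ended both calls. None of the 9 genes was called in the interaction or between the genotypes in the fed state.

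Of 11 entries for sterol export and storage, 8 were tested. In wild type 2 were called lower with fasting and 1 higher (13.2% and 8.23% of all genes). Cyp7a1, the rate-limiting enzyme of bile acid synthesis from cholesterol, was the gene of this list with the smallest p. Its fasting difference was 1.42 in knockout (limma adjusted p 0.0449; 0.811% of all genes were called higher there) and -2.15 in wild type (adjusted p 0.00124), with an interaction of 3.57 (adjusted p 0.017). The call in knockout was lost in 9 of the 10 omissions of an array (all but that of fasted wild type replicate 1), and leaving out fed knockout replicate 2 ended the call of the interaction (adjusted p 0.0735). In the fasted state Cyp7a1 averaged 11.55 ± 0.21 in knockout and 9.41 ± 0.47 in wild type (SD, n = 3 each), a difference of 2.13 (limma adjusted p 0.00434). With replicates 1 and 2 of fasted knockout both left out, that difference was 2.02 (adjusted p 0.0784), the fasting difference in knockout 1.31 (adjusted p 0.132) and the interaction 3.46 (adjusted p 0.065).

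**Figure D4:**
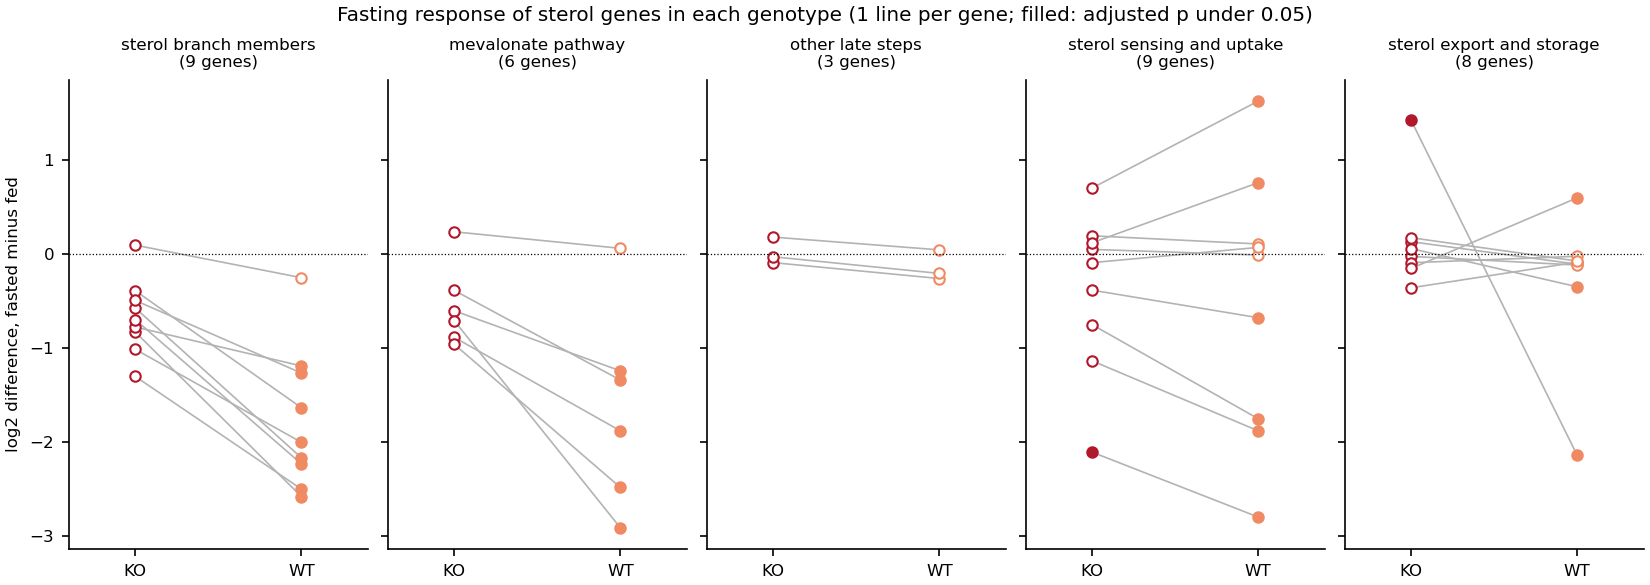
Log2 difference of fasted minus fed (vertical axis) for each gene in knockout and in wild type (horizontal axis), with a line joining the values of 1 gene and filled points at an adjusted p under 0.05, for the 9 members and the genes of 4 neighbouring lists. In wild type 8 of 9 members and 5 of 6 mevalonate genes are filled below 0, and in knockout 0 of either are filled.

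The genes whose pattern over the 10 arrays was most like the mean of the 9 members were ranked by Pearson correlation. The 10 highest were Rdh11 (0.982), Fdps (0.977), Rassf7 (0.966), Mmab (0.966), Erp44 (0.965), Zfp563 (0.962), Nudt7 (0.961), Pter (0.96), Nbas (0.959) and S1pr1 (0.959). Fdps was the 1 gene among them that is on a sterol list used here. Rdh11, a retinol dehydrogenase, had a fasting difference of -0.73 in knockout and -1.76 in wild type (limma adjusted p 0.0528 and 0.000313). Mmab, an enzyme of vitamin B12 metabolism, had -0.38 in knockout and -1.98 in wild type (limma adjusted p 0.242 and 0.000251). Mmab, S1pr1 and Rdh11 were also called in the interaction, at 1.60, 0.96 and 1.03 (limma adjusted p 0.0265, 0.0268 and 0.0488). The others of the 10 were not. Of 10 omissions of an array, 8 kept the call of Mmab, 4 that of S1pr1 and 2 that of Rdh11. Mmab was also called higher in fasted knockout than in fasted wild type, by 0.69 (limma adjusted p 0.0204). These genes were picked by likeness, so the calls add no separate test. The correlations describe arrays that fall into groups, and genes with a large difference between the feeding states rank high on this measure.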

How the data were processed

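The members, lists and tests were chosen with earlier results of these data known. The authors deposited a linear normalized intensity for each probe set on each array, made with RMA in Affymetrix Expression Console per the submitters' processing notes, whose versions and build were not given in the sources used here. Each array holds 228 to 489 values under 0.1, so the summary step is uncertain. Of 41345 probe sets, 23521 have 1 gene symbol and 1814 several. Probe sets above the array median (50th percentile) on at least 2 arrays were kept (14617), and the brightest stood for its gene, which gave 13942 genes. The log2 of each intensity was fitted with 4 group means in limma 3.58.1 (R 4.3.3), moderated by empirical Bayes (6 residual and 3.63 prior degrees of freedom) and Benjamini-Hochberg adjustment per contrast. There were 5 contrasts. The code was tested on simulated data. The number of arrays, 2 or 3 per group, limits the precision.

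All 9 members are named, with up to 4 genes of each neighbouring list by the smallest p and the 10 genes most like the members, leaving out predicted, numbered and noncoding symbols. Gene names come from the platform annotation and promoter sequence from RefSeq (GRCm38.p6). Alternatives were 2 normalizations, 2 filters, the mean of all probe sets, an offset of 16 before log2, trend and robust moderation, weights per array, a block for the replicate number, the clock score as a covariate, only the groups of a contrast, the omission of each array, and the omission of fasted knockout replicates 1 and 2 together.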

Additional observations from a re-analysis of the deposited data

Results flagged for a closer look

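The interaction test in limma called 4 of 9 members, against 1.32% of all genes called in this direction, which is what singles them out here. Of 21 alternatives, 11 kept the call of Cyp51, 9 that of Nsdhl, 8 that of Msmo1 and 7 that of Fdft1. The interaction, knockout minus wild type, was 1.75 on the log2 scale for Cyp51, 1.60 for Nsdhl, 1.54 for Msmo1 and 1.25 for Fdft1, with adjusted p of 0.0426, 0.0426, 0.0426 and 0.0463. Over 21 alternatives the adjusted p ran from 0.025 to 0.136 for Cyp51, from 0.0256 to 0.129 for Nsdhl, from 0.0195 to 0.13 for Msmo1 and from 0.0228 to 0.145 for Fdft1. The clock score shifted unequally with fasting in knockout and wild type. Its part in the interaction was not tested beyond the fit with the score as a covariate, where Cyp51 alone stayed called.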

How the results depend on the processing

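The 8 calls of fasting in wild type held in all 22 alternatives. Of 981 member values under the alternatives, 886 kept their direction and their side of the threshold, 72 lost a call, 17 gained one and 6 changed sign. Values without a call in the main fit could not lose one. All 72 losses fell on the 2 calls after fasting and the 4 calls of the interaction. After fasting, Nsdhl lost its call in 12 of 22 alternatives and Sc5d in 11. In the interaction, of 21 alternatives, Cyp51 lost its call in 10, Nsdhl in 12, Msmo1 in 13 and Fdft1 in 14. When dim probe sets were not filtered out the calls fell to 0 for knockout against wild type after fasting and 0 for the interaction (against 2 and 4), where more genes are tested. With the clock score as a covariate they were 0 and 1, with members' medians of 0.48 and 1.14. Without fasted knockout replicates 1 and 2 together they were 0 and 0, and with only the groups of the contrast the calls after fasting were 0. With the replicate block they were 1 (Nsdhl, adjusted p 0.0381; Sc5d 0.0506) and 2. The titles give the groups shared replicate numbers, but nothing says that these mark a litter or a batch. Of 13 pairs of arrays with the same number, 1 had a correlation of deviations over 0.1 (range -0.17 to 0.11). In a group of 2 arrays the deviations mirror each other, so these are not 13 separate values. They cannot show whether the numbers mark a batch. For fasting in knockout, the stricter filter and trend with robust moderation each gave 3 calls in place of 0. Leaving out 1 array gave 0 to 2 calls for knockout against wild type after fasting, 0 to 1 in the fed state, 0 to 1 for fasting in knockout and 0 to 2 for the interaction. Under these omissions the members' median ran from 0.15 to 0.52 for knockout against wild type after fasting, from -0.91 to -0.56 in the fed state, from -2.24 to -1.63 for fasting in wild type and from 0.79 (without fed wild type replicate 2) to 1.45 for the interaction. The values that changed sign were small ones: Dhcr7 in knockout against wild type after fasting (0.0012 with the clock covariate), Sqle in the same comparison (-0.043 without fasted wild type replicate 2, -0.044 without fasted knockout replicate 1 and -0.15 without its replicate 3; range over omissions -0.15 to 0.52), Hsd17b7 with fasting in wild type (0.0499 without fed wild type replicate 2; range -0.56 to 0.0499) and Hsd17b7 with fasting in knockout (-0.0096 without fasted knockout replicate 3; range -0.0096 to 0.26). The causes of these shifts were not tested. All member values lay at least 1.30 log2 units above the array median, and no background or detection value was used here, so what signal over background limits was not measured.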
